A study of Mus musculus with 39 samples.

Results

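The dense zone of the liver sucrose gradient was compared with its middle zone, to find which RNAs took a larger or smaller share of the RNA in the denser fractions. The dense zone was fractions 16 to 19 and the middle zone fractions 10 to 13 of each of 2 gradients, which gives 16 of the 39 libraries of the study. All libraries came from liver of wild type FVB female mice, 1 mouse per gradient, with no treatment, and their age was not given in the sources used here. The tissue was homogenized with beads in buffered sucrose without detergent, nuclei were pelleted, and the remainder was spun through a 10 to 50% sucrose gradient; total RNA of each fraction was depleted of ribosomal RNA and sequenced as stranded libraries. The 2 zones of a gradient therefore hold RNA of the same homogenate that had travelled different distances, with each fraction depleted and sequenced as a library of its own. The values are TPM, the share of a library's transcripts that a gene symbol takes after division by length, scaled to a fixed total. Of 13230 genes in the tables of both gradients, the 11169 with a mean TPM of at least 1 over the 16 libraries were tested.

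As background, larger and denser particles travel further in such a gradient. A free messenger ribonucleoprotein stays near the top, an mRNA loaded with many ribosomes travels deeper, and an mRNA held on the endoplasmic reticulum (ER), mitochondria or other structures moves with the membrane or structure that holds it. Secreted and membrane proteins usually begin with, or contain, a hydrophobic stretch that brings their translating ribosomes to the ER.

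The change of each gene was the mean log2(TPM + 1) of the 4 dense fractions minus that of the 4 middle fractions, computed in each gradient. On this scale the change of a low gene is understated. The typical RNA took a smaller share in the dense zone: the median change over all genes was -0.28 (-0.31 in gradient 1 and -0.27 in gradient 2), with quartiles of -0.85 and 0.18. Because that total is fixed, this median moves with the few most abundant RNAs, and changes of gene groups are given beside it. The 50 most abundant genes took between 27.4% and 32.1% of the TPM of a middle library and between 31.1% and 39.0% of a dense library. Between 10867 and 11633 genes exceeded 1 TPM in a middle library, and between 10548 and 10880 in a dense library. The ribosomal precursor Rn45s, which remained after depletion, ranged from 16214 to 54250 TPM in the middle zone and from 17463 to 64619 in the dense zone, and its change was -0.12 in gradient 1 and 0.94 in gradient 2. The part of these shifts in the results was not tested beyond the rescalings given with the counts.

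With the gradients as replicates and no block, limma called 313 genes higher in the dense zone (2.80% of those tested) and 1864 lower (16.7%) at an adjusted p under 0.05. The gradient pairs the zones, and with the gradient as a block the counts were 1995 higher (17.9%) and 4875 lower (43.6%). All 313 and all 1864 were also called in the blocked fit, which had a smaller standard error (median 0.123 on the log2 scale, against 0.263). In this balanced design the 2 fits have the same estimates, so the direction could not differ. Centring each library on its median changed the balance: 1005 genes were called higher (9.00%) and 930 lower (8.33%), so that 51.9% of calls were higher in place of 14.4%. Quantile normalization gave 42.7%. In 1399 genes (12.5%) all 4 dense libraries lay above all 4 middle libraries in both gradients, and in 3337 genes (29.9%) they lay below. Leaving out fraction 10 of gradient 1 reduced the unblocked calls to 115 higher and 1079 lower. With 2 values per zone, an exact permutation test of a single gene could not reach a p under 0.333, so the calls rest on the spread that limma shares across genes. In what follows, rose and fell are used only for genes called in the unblocked fit, and counts of the blocked fit are given for whole lists and length classes where they differ by more than 1.5 times.

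**Figure D1:**
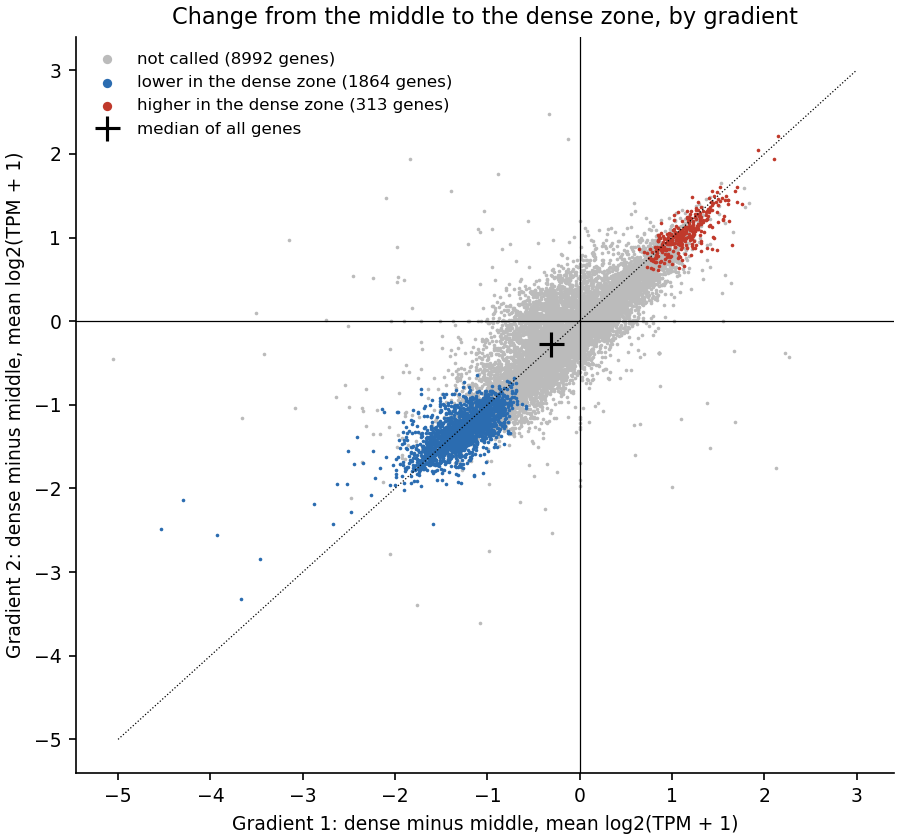
Dense minus middle difference of mean log2(TPM + 1) in gradient 1 on the x axis and gradient 2 on the y axis; each point is 1 of 11169 genes, red and blue points are the 313 and 1864 genes called higher and lower by limma, the cross is the median of all genes and the dotted line marks equality. Points follow the dotted line (Pearson r = 0.873 across genes) and the cross lies below 0 on both axes.

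The gradients gave similar changes: across the 11169 genes their changes had a Pearson r of 0.873, 85.1% of genes had the same sign in both, and the median absolute difference was 0.179. Genes are not independent replicates, so no p is given for this. The genes that rose had a median level of 180.3 TPM, a median coding length of 1239 nt and a median 3′ UTR of 437 nt. The genes that fell had a median level of 29.6 TPM, a median coding length of 758 nt and a median 3′ UTR of 1002 nt, and the 8992 genes not called had medians of 12.4 TPM, 1467 nt and 988 nt.

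The light zone of the same gradients, fractions 4 to 7, was not used for the calls and places them. The call fixes the order of the middle and dense zones, so only the place of the light zone is free. Of the 313 genes that rose, 310 (99.0%) had their highest zone mean in the dense zone and 3 in the light zone. The median level of these genes went from 5.69 in the light zone to 6.86 in the middle and 7.90 in the dense zone on the log2 scale; the step from middle to dense is what chose them. The genes that fell had 2 patterns: 994 (53.3%) were highest in the middle zone and 870 (46.7%) in the light zone. Their median levels were 5.24, 5.39 and 4.08. At fraction 21, beyond the dense zone, the genes that rose were a median of 0.13 above their dense zone mean and the genes that fell a median of 0.21 below it.

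Among genes averaging at least 10 TPM, the largest rises were those of ubiquitin, metabolic enzymes, keratin and tubulin. Ubb, which encodes a chain of ubiquitin repeats (chr11:62551171-62553213, plus strand, GRCm38), ranged from 258.5 to 1053 TPM in the middle libraries (median 517.8) and from 1405 to 3242 in the dense libraries (median 2323). The zones did not overlap, and Ubb rose by 2.18 on the log2 scale (SE 0.32, adjusted p 0.0274). Gapdh, the glycolytic glyceraldehyde-3-phosphate dehydrogenase (chr6:125161715-125166467, minus strand), ranged from 1175 to 2779 TPM in the middle zone and from 3950 to 6607 in the dense zone, a rise of 1.54 (SE 0.22, adjusted p 0.0271). Its direction held under quantile normalization, but its call did not (change 1.21, adjusted p 0.0668). Aldh2, the mitochondrial aldehyde dehydrogenase, went from a median of 1289 to 3947 TPM, Krt8, a keratin of hepatocyte intermediate filaments, from 145.4 to 489.8, and Sds, serine dehydratase, from 335.2 to 1048. All 8 dense libraries were above all 8 middle libraries for each of these 3 genes, and their changes were 1.56, 1.66 and 1.62. The other large rises were Eno1b (2.02), Akr1b3 (1.99), Sirt4 (1.58), Tuba1a (1.57) and Sult2a2 (1.53). Ubb is made of repeats, and Eno1b, Tuba1a and Sult2a2 have near copies, so how reads were divided between these genes is uncertain. Without fraction 10 of gradient 1, Sirt4 and Tuba1a were no longer called (adjusted p 0.0606 and 0.0535).

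Among protein-coding genes averaging at least 10 TPM, the largest falls were those of short coding sequences, all 10 with at most 498 nt. Usmg5, which encodes a small subunit of the mitochondrial ATP synthase (coding length 174 nt, chr19:47083464-47090647, minus strand), ranged from 499.4 to 2485 TPM in the middle zone (median 1452) and from 223.3 to 487.8 in the dense zone (median 362.5). It fell by 1.91 (SE 0.23, adjusted p 0.0271), with no overlap between zones. Gtf2a2, a subunit of the general transcription factor TFIIA (chr9:70012550-70022866, plus strand), ranged from 32.0 to 98.1 TPM in the middle zone and from 8.19 to 17.3 in the dense zone and fell by 2.01 (SE 0.23, adjusted p 0.0271). Bola2 (coding length 258 nt) had a change of -1.96, Serf1 (186 nt) of -1.93, Cript (303 nt) of -1.92 and Immp1l (498 nt), a protease subunit of the mitochondrial inner membrane, of -1.96, and all were called lower. Polr2d, an RNA polymerase II subunit, and Hint3 were lower with changes of -2.08 and -2.05. Hist1h4j and Hist1h4a were lower with changes of -2.24 and -2.03; they belong to the histone H4 copies, which share sequence, so their separate values are uncertain. Hint3 overlaps Ncoa7 on the same strand, and without fraction 10 of gradient 1 its adjusted p was 0.0523; after centring, Hint3 and Hist1h4j were not called (0.0667 and 0.0554).

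Along the whole gradient these genes had different shapes. In the plot of TPM by fraction, Usmg5 was highest in fraction 9 of both gradients and the mitochondrial ribosomal protein gene Mrpl20 in fraction 10 or 11, and both dropped within the middle zone. Ubb, Gapdh, Psma5 and Actb climbed through the middle zone into the dense zone. Alb was highest in fraction 4 and Cyp2e1 in fraction 6, both in the light zone.

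**Figure D2:**
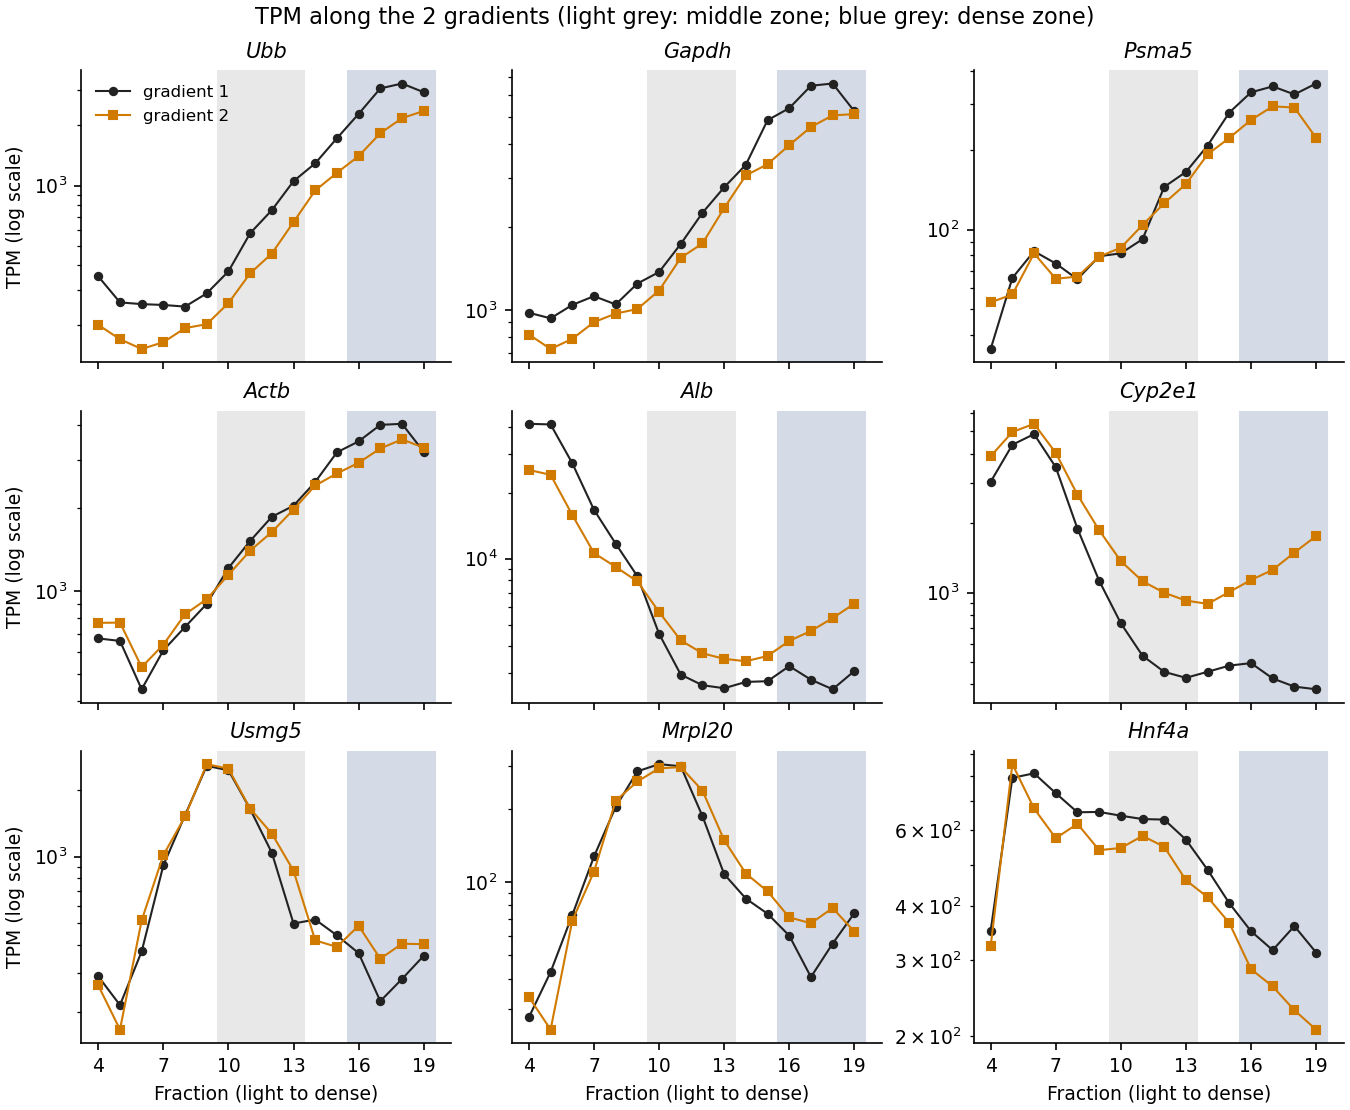
TPM (log scale) of 9 genes in fractions 4 to 19 of gradient 1 (black circles) and gradient 2 (orange squares), from light to dense; the middle zone is shaded light grey and the dense zone blue grey, and each point is 1 library. Alb and Cyp2e1 are the 2 genes shown in which the gradients differ in direction between the zones (changes of -0.09 and 0.27, and of -0.32 and 0.35).

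Coding length, taken from 1 GENCODE transcript per symbol for 10464 genes (93.7% of those tested), had the largest rank correlation with the change among 5 features computed. For the 226 genes with at most 300 nt the median change was -1.39, and 149 of them fell. It was -1.09 over 300 and up to 450 nt, -0.75 up to 600 nt, -0.35 up to 900 nt and -0.18 up to 1200 nt. Beyond 1200 nt it stayed between -0.10 and -0.20, up to the 397 genes over 5000 nt. The medians of the 2 gradients were close in the shortest genes, at -1.34 and -1.42. Across genes, Spearman's rho with the change was 0.277 for coding length, 0.063 for transcript length, -0.050 for 5′ UTR length -0.099 for 3′ UTR length and 0.054 for the mean TPM, each over 10464 genes and given as a description.

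Genes whose protein begins with a hydrophobic stretch departed from this pattern, except at the shortest coding lengths. A gene was put in this class where some 12 residues within the first 40 had a mean Kyte-Doolittle hydropathy of at least 2.0, a crude measure that is not an annotation of signal peptides. Among coding lengths over 300 and up to 600 nt, the 175 genes of this class had a median change of -0.20 and 12 fell (57 lower and 14 higher with the block), while the 965 genes with no hydrophobic stretch had a median of -1.04 and 454 fell (802 lower and 46 higher with the block). Up to 300 nt, the 57 genes of the class had a median of -0.90 and 20 fell (43 lower with the block), against a median of -1.46 and 115 falls for the 152 with no stretch. The 120 genes with a stretch only after residue 40 (19 residues with a mean of at least 1.6) and over 300 and up to 600 nt had a median of -0.83 with 39 falls (86 lower with the block). In each of the 6 bins over 900 nt the medians of the 3 classes, as means of both gradients, lay within 0.11 of each other, but the gradients differed: over 900 and up to 1200 nt the N-terminal class had medians of -0.32 in gradient 1 and 0.06 in gradient 2, and genes with no stretch -0.13 and -0.29. Of the 3 classes the N-terminal one had the narrowest spread: its quartiles were -0.42 and 0.07, against -0.96 and 0.25 for genes with no stretch. Over all lengths, gradient 1 gave the N-terminal class a median of -0.32 and gradient 2 a median of 0.01, and genes with no stretch -0.27 and -0.41; these differences were not tested.

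The starts of the coding sequences show what separates these 2 classes. The first 120 bases are given for the 3 most abundant genes over 300 and up to 450 nt with an N-terminal stretch and the 3 with no stretch; capitals mark the 12 codons of highest mean hydropathy among the first 40, and sequences are of the sense strand from GENCODE transcripts of GRCm38. With an N-terminal stretch, these were Apoa2 and Apoc4, which encode apolipoproteins, and B2m, the light chain of MHC class I molecules:
Apoa2: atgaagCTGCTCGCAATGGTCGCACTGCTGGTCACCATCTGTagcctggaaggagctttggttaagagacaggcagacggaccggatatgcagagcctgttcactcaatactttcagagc
Apoc4: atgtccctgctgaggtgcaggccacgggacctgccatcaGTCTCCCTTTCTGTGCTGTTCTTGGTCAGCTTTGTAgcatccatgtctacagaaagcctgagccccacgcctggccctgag
B2m: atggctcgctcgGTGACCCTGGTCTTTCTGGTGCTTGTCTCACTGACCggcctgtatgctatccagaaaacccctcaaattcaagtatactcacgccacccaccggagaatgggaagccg
Without a stretch, they were Fabp1, the liver fatty acid binding protein, Rida, a deaminase of reactive imines, and Ddt, D-dopachrome tautomerase:
Fabp1: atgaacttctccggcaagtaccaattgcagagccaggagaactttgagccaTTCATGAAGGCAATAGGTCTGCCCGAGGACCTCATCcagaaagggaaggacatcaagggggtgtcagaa
Rida: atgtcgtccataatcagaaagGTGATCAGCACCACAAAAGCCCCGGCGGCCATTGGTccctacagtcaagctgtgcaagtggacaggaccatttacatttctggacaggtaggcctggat
Ddt: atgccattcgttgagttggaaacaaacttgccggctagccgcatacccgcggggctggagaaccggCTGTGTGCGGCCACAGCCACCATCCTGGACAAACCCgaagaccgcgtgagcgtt
The mean hydropathy of the capital codons was 2.95, 2.62 and 2.72 in the first set and 0.85, 0.875 and 0.80 in the second.

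The 6 genes did not divide as cleanly as the class medians. Apoa2 (chr1:171225054-171226379) ranged from 5382 to 15680 TPM in the middle zone and from 8655 to 18360 in the dense zone, with a change of 0.22. Apoc4 (chr7:19678083-19681479) had a median of 2690 TPM in the middle and 1775 in the dense zone (change -0.52), and B2m (chr2:122147686-122153083) medians of 744.8 and 909.4 (change 0.52). None of these 3 passed the unblocked test (adjusted p 0.762, 0.105 and 0.586), and in the blocked fit Apoc4 was lower (adjusted p 0.00296) and B2m higher (0.0329). Ddt (chr10:75771230-75773414) ranged from 2873 to 4976 TPM in the middle zone and from 1478 to 2500 in the dense zone, without overlap, and fell by 1.06 (SE 0.18, adjusted p 0.0291). Fabp1 (chr6:71199827-71205023), with the highest mean level of the 6 at 41330 TPM, had a change of -0.57 (adjusted p 0.213, and 0.00167 with the block). Rida (chr15:34484021-34495255) had a median of 3230 TPM in the middle zone and 3340 in the dense zone, and its change of -0.003 passed neither test.

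**Figure D3:**
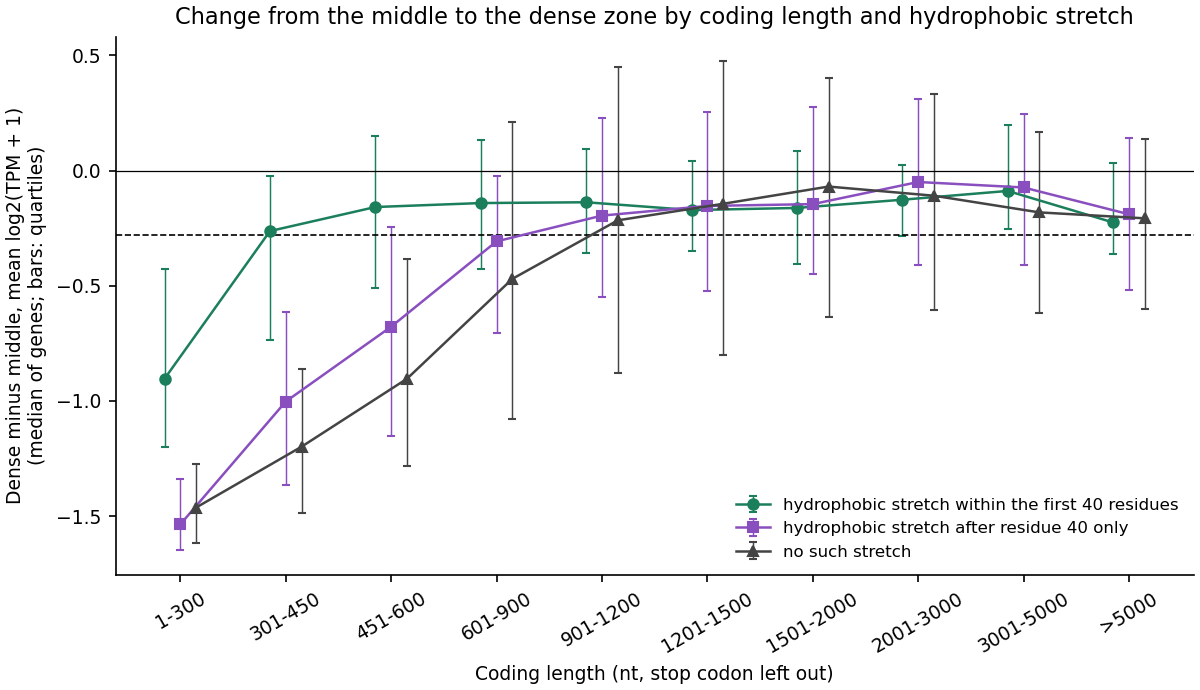
Median over genes of the dense minus middle difference in mean log2(TPM + 1), mean of both gradients, by coding length in nt, for genes with a hydrophobic stretch within the first 40 residues (green), only after residue 40 (violet) and with none (grey); bars are quartiles over genes and the dashed line is the median of all genes, -0.28. In the bin up to 450 nt the medians are -0.26, -1.003 and -1.20, and over 900 nt the 3 lines lie within 0.11 of each other in this mean of gradients, which differ in the order of the classes.

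The change also differed with level, and over different levels for short and longer coding sequences. Among genes over 900 and up to 3000 nt, the median change was -0.19 for a mean level of 1 to 3 TPM, -0.22 for 3 to 10 TPM and -0.21 for 10 to 30 TPM. It was -0.06 for 30 to 100 TPM, 0.36 for 100 to 300 TPM and 0.81 for 300 TPM or more, where 77 of 235 genes rose (179 higher with the block). Among genes of at most 450 nt it was -0.68 at 1 to 3 TPM, -0.94 at 3 to 10 TPM and -1.20 at 10 to 30 TPM. It was -1.37 at 30 to 100 TPM, -1.34 at 100 to 300 TPM and -1.31 at 300 TPM or more, where 84 of 124 fell. The pseudocount draws the changes of the lowest genes towards 0. Over 900 and up to 3000 nt, genes with a 3′ UTR of at most 300 nt had a median change of 0.04 and those with more than 2000 nt a median of -0.29, with values of 0.01 and -0.33 in gradient 1 and 0.11 and -0.28 in gradient 2.

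**Figure D4:**
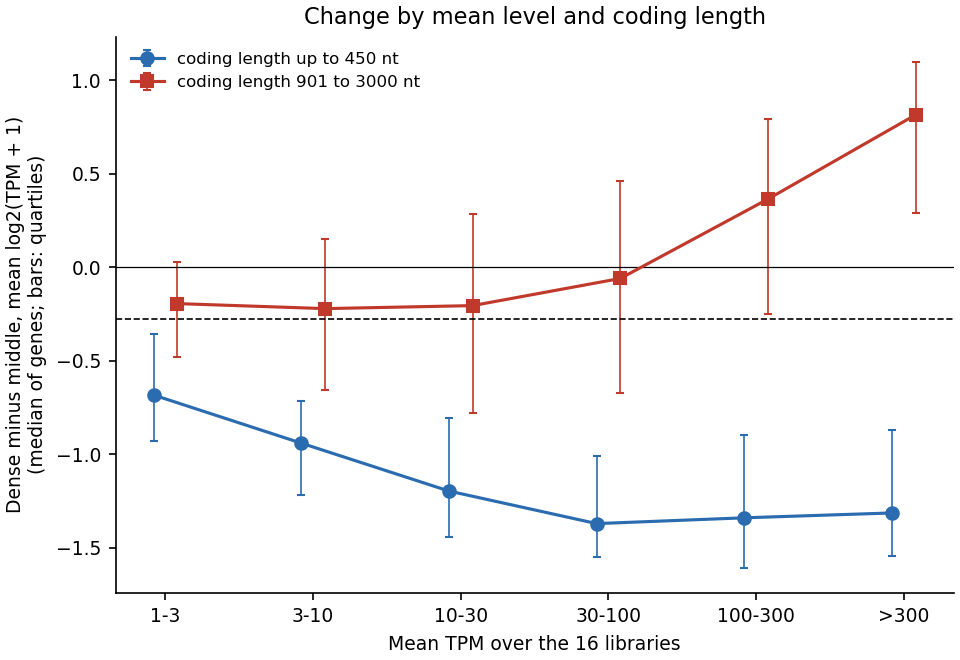
Median over genes of the dense minus middle difference in mean log2(TPM + 1) by mean TPM over the 16 libraries, for genes with a coding length of at most 450 nt (blue) and over 900 and up to 3000 nt (red); bars are quartiles over genes and the dashed line is the median of all genes. The lines are apart at every level and furthest apart at 300 TPM or more, at -1.31 and 0.81.

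The lists of glycolysis and gluconeogenesis and of mitochondrial matrix enzymes had the highest medians. Of 26 measured genes of glycolysis and gluconeogenesis, 6 rose and 20 did not pass the test (23 were higher with the block), 24 had a change above the all-gene median, and the list median was 0.96 against -0.28 for all genes. The share that rose was 23.1% against 2.80% of all genes, and 88.5% against 17.9% with the block. Gapdh, described above, was its member with the largest rise. Of 37 mitochondrial matrix enzymes, 12 rose, 1 fell and 24 did not pass (33 higher with the block), with a list median of 0.85. Of the list 32.4% rose, and 89.2% were higher with the block. Otc, the ornithine transcarbamylase of the urea cycle, ranged from 242.3 to 570.6 TPM in the middle zone and from 890.2 to 1353 in the dense zone and rose by 1.45 (SE 0.19, adjusted p 0.0271). Cps1, the first enzyme of the urea cycle, ranged from 1614 to 3783 TPM in the middle zone and from 3045 to 5958 in the dense zone, and its change of 0.78 did not pass without the block (adjusted p 0.210) and did with it (0.000457). The member that fell was Hspe1, a chaperonin of 306 nt coding length rather than an enzyme, by 1.49; after centring each library it was not called (adjusted p 0.0861).

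The lists of tRNA synthetases, the CCT chaperonin and the cytoskeleton had positive medians too. Of 25 genes of aminoacyl-tRNA synthetases and their scaffold, 6 rose, 1 fell and 18 did not pass (18 higher with the block), and the median was 0.71. The share that rose was 24% against 2.80% of all genes, and 72% against 17.9% with the block. Against genes of the same coding length bin the median was 0.85. Aimp2, a scaffold of the multisynthetase complex, ranged from 13.7 to 23.8 TPM in the middle zone and from 37.2 to 54.7 in the dense zone and rose by 1.16 (adjusted p 0.0291), while Eef1e1, a further scaffold protein with a shorter coding sequence of 522 nt, went from a median of 26.1 to 8.17 TPM and fell by 1.53 (adjusted p 0.0271). All 8 genes of the CCT chaperonin, which folds actin and tubulin, were above the all-gene median. Of them 3 rose and 8 were higher with the block, 37.5% and 100% of the list against 2.80% and 17.9% of all genes. The median was 0.63, and 0.86 against the coding length bin for the 7 with a coding length. Cct3 ranged from 114.8 to 198.4 TPM in the middle zone and from 241.2 to 345.0 in the dense zone and rose by 1.00 (adjusted p 0.0354, and 0.0611 without fraction 10 of gradient 1). Of 36 genes of cytoskeleton and motors 9 rose and 27 did not pass (22 higher and 5 lower with the block), with a median of 0.66. Of the list 25% rose, and 61.1% were higher with the block. Its median against the coding length bin was 0.85. Actb ranged from 1146 to 2042 TPM in the middle and from 2925 to 4052 in the dense zone and rose by 1.14 (adjusted p 0.0279), and Krt18, the partner of Krt8, rose by 1.48 (adjusted p 0.0271). Under quantile normalization Actb had an adjusted p of 0.0586.

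The proteasome lists had positive medians as well. In the 20S core, which holds the proteolytic sites, 5 of 17 genes rose and 12 did not pass (10 higher and 1 lower with the block), 16 were above the all-gene median and the list median was 0.54. The share that rose was 29.4% against 2.80% of all genes, and 58.8% against 17.9% with the block. Against genes of the same coding length bin the median was 0.89. Psma5 ranged from 81.4 to 165.7 TPM in the middle zone and from 223.2 to 358.9 in the dense zone, without overlap, and rose by 1.38 (SE 0.20, adjusted p 0.0271). Psma1 ranged from 112.2 to 186.2 and from 249.6 to 344.8 TPM and rose by 1.01 (adjusted p 0.0350, and 0.0546 without fraction 10 of gradient 1). The 2 most abundant core genes, Psmb4 and Psmb7, overlapped between zones and had changes of 0.19 and 0.32, which did not pass (adjusted p 0.615 and 0.337); with the block Psmb7 was higher (0.0451) and Psmb4 was not called (0.153). In the 19S regulator, which unfolds substrates, 5 of 21 rose and 1 fell (14 higher and 4 lower with the block), with a median of 0.51. Of this list 23.8% rose, and 66.7% were higher with the block. Its median against the coding length bin was 0.68. Psmd14, its deubiquitinase, rose by 1.19 (adjusted p 0.0280), and Psmd8 went from a median of 349.3 to 206.8 TPM and fell by 0.81 (adjusted p 0.0404); the call of Psmd8 was lost after centring (0.0941) and without fraction 10 of gradient 1 (0.0584). Psmc5, Adrm1 and Psmd2 had changes of 0.67, 0.55 and 0.35, which did not pass without the block and did with it (adjusted p 0.00152, 0.00315 and 0.0149); after centring, Psmc5 and Psmd2 were called higher (0.0373 and 0.0454).

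The nuclear genes of the respiratory chain and the mitochondrial ribosome had more falls than rises. Of 78 nuclear genes of the respiratory chain and ATP synthase, 6 rose, 44 fell and 28 did not pass (12 higher and 59 lower with the block), with a median of -1.06. The share that fell was 56.4% against 16.7% of all genes, and 75.6% against 43.6% with the block. Against genes of the same coding length bin the median was 0.02, with 39 of 77 above it. The 56 members of at most 600 nt had a median of -1.32 and 40 fell, whereas the 21 longer members had a median of 0.42, with 6 rises and 3 falls; all genes of these lengths had medians of -1.01 and -0.17. Ndufc1 (228 nt), a small accessory subunit of complex I, ranged from 170.4 to 1061 TPM in the middle zone and from 84.9 to 171.6 in the dense zone and fell by 1.83 (adjusted p 0.0271). Ndufv1 (1392 nt), which carries the NADH-binding site of the same complex, ranged from 158.4 to 413.6 and from 541.6 to 825.2 TPM and rose by 1.43 (adjusted p 0.0278). Atp5b (1587 nt), the catalytic beta subunit of ATP synthase, ranged from 2028 to 3265 TPM in the middle zone and from 3515 to 4429 in the dense zone, without overlap; its change of 0.63 had an adjusted p of 0.0690 unblocked and 0.00105 with the block. The mitochondrial ribosomal proteins had 3 rises and 42 falls among 77 genes (11 higher and 58 lower with the block) and a median of -0.93. Of this list 54.5% fell, and 75.3% were lower with the block. Their 40 members of at most 600 nt had a median of -1.23 with 29 falls, and the 37 longer members a median of -0.55 with 3 rises and 13 falls. Mrpl20 (447 nt) went from a median of 265.4 to 65.0 TPM and fell by 1.8 (adjusted p 0.0271), and Mrps31 (1152 nt) went from 44.0 to 105.9 TPM and rose by 1.25 (adjusted p 0.0271).

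Of 82 cytosolic ribosomal protein genes, 31 fell and 51 did not pass (67 lower and 1 higher with the block), and the median was -0.84. The share that fell was 37.8% against 16.7% of all genes, and 81.7% against 43.6% with the block. Against the median of genes of the same coding length bin, their median was 0.04, with 43 of 81 above it, while that of the mitochondrial ribosomal proteins was -0.25, with 28 of 77 above it. Rps27l (252 nt) ranged from 294.5 to 1492 TPM in the middle zone and from 142.5 to 284.1 in the dense zone and fell by 1.82 (adjusted p 0.0271). Rpl10, at 642 nt, had a change of -0.48 (adjusted p 0.219, and 0.00475 with the block). Translation factors were mixed, with 3 rises and 15 falls among 63 (15 higher and 29 lower with the block) and a median of -0.19. The shares were 4.76% and 23.8% against 2.80% and 16.7% of all genes, and with the block 23.8% and 46.0% against 17.9% and 43.6%. Among them, the elongation factor Eef1a1 overlapped between zones at medians of 1979 and 1995 TPM (change 0.05), and the initiation factor Eif5a fell by 0.87 (adjusted p 0.0343, and 0.0981 after centring).

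RNAs of the secretory pathway were called in smaller shares than all genes in both directions. With the block, 19.7% of plasma protein genes, 8% of ER genes, 17.9% of cytochrome P450s, 19.9% of solute carriers, 3.33% of lysosomal genes and 22.2% of extracellular matrix genes were lower, against 43.6% of all genes. In the same order, 5.63%, 8%, 1.79%, 4.26%, 13.3% and 11.1% were higher with the block, against 17.9% of all genes. Above the all-gene median were 53 of 71 plasma protein genes, 42 of 50 ER genes, 34 of 56 cytochrome P450s, 80 of 141 solute carriers, 27 of 30 lysosomal genes and 5 of 9 extracellular matrix genes, but in 4 of the 6 lists the side of the median depended on the gradient or on the zone borders. Relative to all genes, ER genes had medians of 0.03 in gradient 1 and 0.45 in gradient 2 and solute carriers of -0.07 and 0.24, and with fractions 15 to 18 against 9 to 12 plasma proteins, ER genes, cytochrome P450s and solute carriers were below all genes. Against genes of the same coding length bin the medians were 0.01 for plasma proteins, 0.20 for ER genes, -0.07 for cytochrome P450s, -0.08 for solute carriers, 0.15 for lysosomal genes and -0.04 for the extracellular matrix. None of 71 plasma protein genes passed the unblocked limma test (2 had an unadjusted p under 0.05, both lower; 4 higher and 14 lower with the block), and the median was -0.16. Relative to all genes their median was -0.04 in gradient 1 and 0.38 in gradient 2, a difference that was not tested, and it was -0.15 with fractions 15 to 18 against 9 to 12. The members of highest mean level, Apoc1 (15610 TPM) and Apoa2 (12380 TPM), had changes of -0.36 and 0.22. With the block Apoc1 was lower (adjusted p 0.0125) and Apoa2 was not called (0.0737). Alb, which encodes albumin, ranged from 2562 to 5709 TPM in the middle zone and from 2534 to 6231 in the dense zone. Its change of 0.09 (SE 0.34, adjusted p 0.886) was -0.09 in gradient 1 and 0.27 in gradient 2. None of 56 cytochrome P450 genes passed either (1 at an unadjusted p under 0.05; 1 higher and 10 lower with the block), with relative medians of -0.18 and 0.38 in gradients 1 and 2. Cyp2e1 overlapped between zones at medians of 829.6 and 814.0 TPM. Of 50 ER folding and translocon genes 2 fell (4 higher and 4 lower with the block), both with short coding sequences: Sec61b (288 nt), of the protein-conducting channel, ranged from 380.2 to 964.1 and from 188.4 to 279.3 TPM and fell by 1.54 (adjusted p 0.0271), and Sec61g (204 nt) fell by 1.40 (adjusted p 0.0380, 0.0557 without fraction 10 of gradient 1 and 0.121 after centring). None of 30 lysosomal genes passed (0 at an unadjusted p under 0.05; 4 higher and 1 lower with the block), and the median was 0.00. Of 141 solute carriers, 2 fell (6 higher and 28 lower with the block), a share of 1.42% against 16.7% of all genes, and the median was -0.21. The zinc transporter Slc30a9 fell by 1.39 (adjusted p 0.0284, and 0.0598 after centring). None of 9 extracellular matrix genes passed (0 at an unadjusted p under 0.05; 1 higher and 2 lower with the block). Col18a1, a basement membrane collagen, overlapped between zones at medians of 74.9 and 81.1 TPM.

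**Figure D5:**
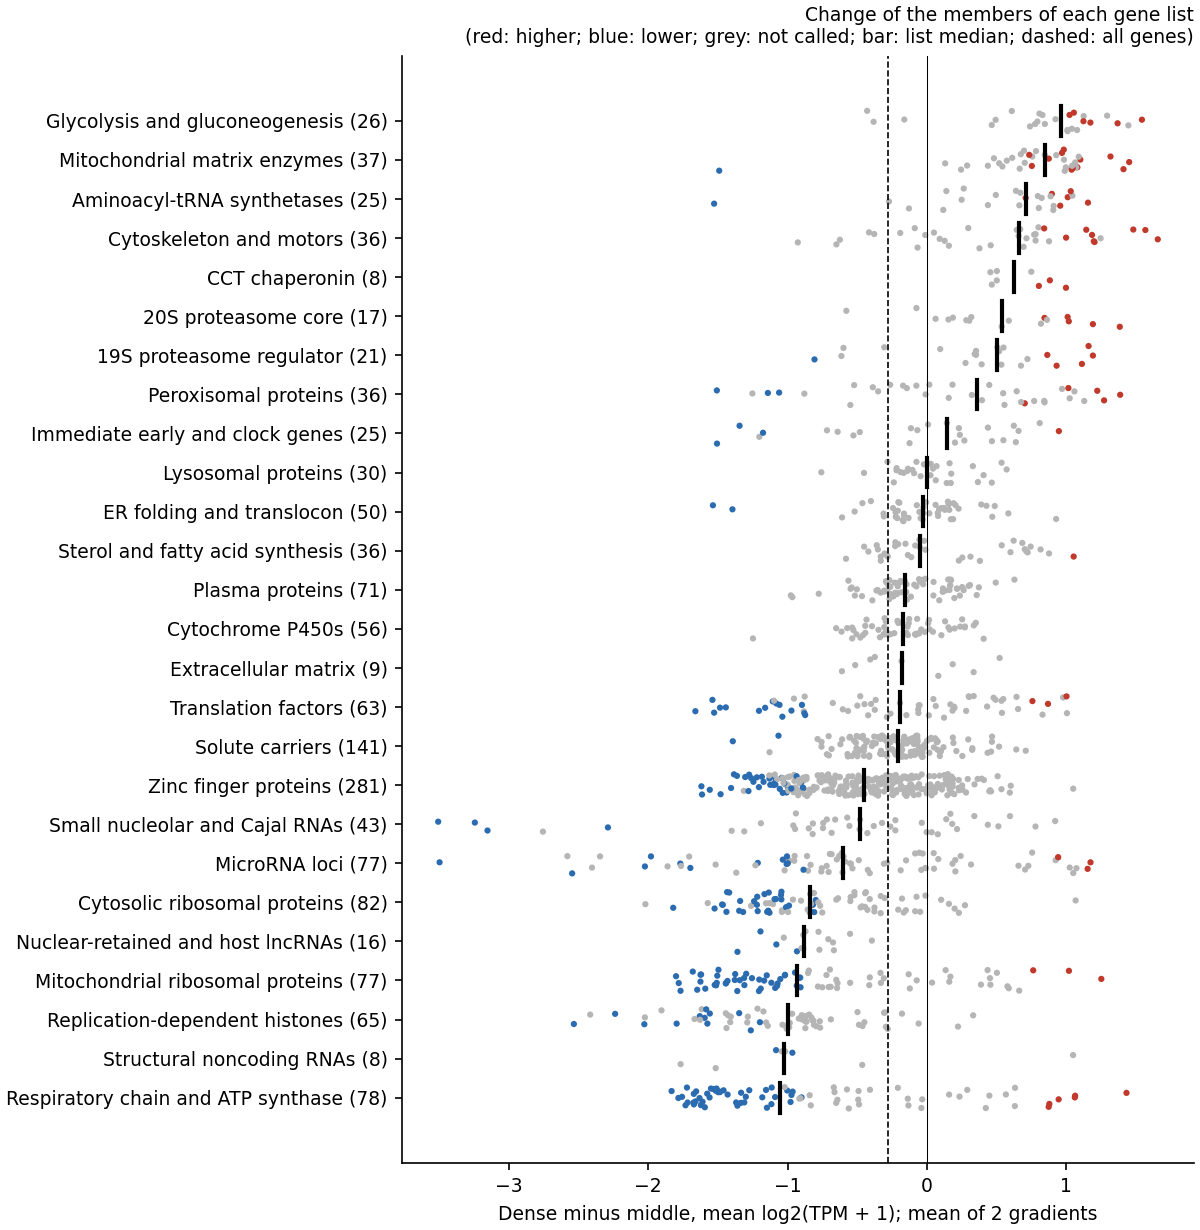
Dense minus middle difference of mean log2(TPM + 1), mean of both gradients, on the x axis for each member of 26 gene lists, ordered by median, with the number of genes tested in brackets; red and blue points rose and fell by limma, black bars are list medians and the dashed line is the median of all genes. The medians run from -1.06 for the respiratory chain and ATP synthase to 0.96 for glycolysis and gluconeogenesis.

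Peroxisomal genes and genes of sterol and fatty acid synthesis lay between. Of 36 peroxisomal genes, 5 rose, 3 fell and 28 did not pass (19 higher and 9 lower with the block), with a median of 0.36. The shares were 13.9% and 8.33% against 2.80% and 16.7% of all genes, and with the block 52.8% were higher against 17.9% and 25% lower against 43.6%. Cat, catalase, ranged from 2495 to 4182 TPM in the middle zone and from 5599 to 7478 in the dense zone and rose by 1.02 (adjusted p 0.0294), although this call was lost under quantile normalization and without fraction 10 of gradient 1 (0.0544). Acaa1a, the thiolase of peroxisomal fatty acid oxidation, rose by 1.39 (adjusted p 0.0279), and Pex7, an import receptor, went from a median of 177.2 to 57.2 TPM and fell by 1.51 (adjusted p 0.0271, and 0.0519 after centring). Of 36 genes of sterol and fatty acid synthesis, 1 rose (12 higher and 2 lower with the block), a share of 2.78% against 2.80% of all genes, and with the block 33.3% against 17.9%; the median was -0.05. It was Acly, the ATP citrate lyase, by 1.05 (adjusted p 0.0480), and its adjusted p was 0.0507 after centring and 0.0608 without fraction 10 of gradient 1.

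Lists of transcription control and chromatin came next. Of 281 zinc finger genes 34 fell and 247 did not pass (8 higher and 147 lower with the block). The share that fell was 12.1%, below the 16.7% of all genes, and 52.3% were lower with the block against 43.6% of all genes. The median was -0.45, or -0.29 against genes of the same coding length. Zfp874a ranged from 5.77 to 19.0 TPM in the middle zone and from 1.49 to 3.67 in the dense zone and fell by 1.62 (adjusted p 0.0278). Of 25 immediate early and clock genes, 1 rose and 3 fell (9 higher and 8 lower with the block), shares of 4.00% and 12.0% against 2.80% and 16.7% of all genes, and with the block 36.0% and 32.0% against 17.9% and 43.6%. Nr1d2, a clock repressor, went from a median of 73.3 to 26.1 TPM and fell by 1.51 (adjusted p 0.0472, 0.135 after centring and 0.0717 without fraction 10 of gradient 1), while its relative Nr1d1 overlapped between zones at medians of 177.5 and 231.6 TPM (change 0.27, adjusted p 0.423, and 0.0475 with the block). Klf2 rose by 0.95 (adjusted p 0.0432, and 0.0624 without fraction 10 of gradient 1). Of 65 replication-dependent histone genes, 12 fell (55 lower and 1 higher with the block), a share of 18.5% against 16.7% of all genes, and with the block 84.6% against 43.6%, with a median of -0.999. Against genes of the same coding length their median was 0.07.

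The 4 lists of noncoding RNAs had medians below that of all genes, except that without the filter on TPM the small nucleolar RNAs and microRNA loci lay 0.20 and 0.21 above it, and microRNA loci 0.036 above it with fractions 17 and 18 against 11 and 12. All 16 nuclear-retained and host lncRNAs lay below the all-gene median; 4 fell (15 lower with the block), and the list median was -0.88. The share that fell was 25% against 16.7% of all genes, and 93.8% against 43.6% with the block. Malat1, which is retained in nuclei, had a median of 34.9 TPM in the middle zone and 21.7 in the dense zone (change -0.67, adjusted p 0.219, and 0.00496 with the block). Of 8 structural RNAs 2 fell (7 lower and 1 higher with the block), 25% and 87.5% of the list, among them Rpph1, the RNA of ribonuclease P, whose zones overlapped at medians of 903.0 and 384.6 TPM and which fell by 0.97 (adjusted p 0.0295, and 0.0628 after centring). Of 43 small nucleolar and Cajal body RNAs 4 fell (17 lower with the block), and of 77 microRNA loci 3 rose and 12 fell (8 higher and 22 lower with the block). These shares of falls, 9.30% and 15.6%, were not above the 16.7% of all genes, and those with the block, 39.5% and 28.6%, were below its 43.6%. The largest falls among the named genes were of noncoding RNAs: Snora28, Mir5133, Snord91a, Rnu7 and Snora30, in that order. Snora28 was listed at 0 in 7 of 8 dense libraries and 1 middle library, with at most 80.9 TPM in the middle zone. Mir5133 was listed at 0 in 4 dense libraries and ranged from 15.0 to 110.1 TPM in the middle zone. Snora30 was listed at 0 in 6 dense libraries and 1 middle library. Snora28, Mir5133 and Snora30 lie inside Eif5, Glce and Srcap on the same strand. Values of such short features in libraries of longer fragments, where reads of the host cannot be set apart, are uncertain. Mir1960, called higher, was above 0 in only 2 of 8 dense libraries and in no middle library, and its call was lost without fraction 18 of gradient 1 (adjusted p 0.414). The symbols Rnh1, a ribonuclease inhibitor, and 4931406C07Rik were grouped with noncoding genes by their spelling but encode proteins; they rose by 1.15 and 0.96, and both calls were lost without fraction 10 of gradient 1 (adjusted p 0.0678 and 0.0596).

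The tissue label was checked with cell type markers. All 10 hepatocyte markers were measured, with a summed level of 10380 to 18580 TPM in the middle libraries and 14850 to 30870 in the dense libraries. They did not move as a group: Hnf4a, a transcription factor of hepatocytes, ranged from 459.9 to 648.8 TPM in the middle zone and from 207.2 to 360.0 in the dense zone and fell by 1.01 (adjusted p 0.0439, 0.0683 after centring and 0.0593 without fraction 10 of gradient 1), while the other 9 did not pass (5 higher and 3 lower with the block). With the block, 50% of the hepatocyte markers were higher and 40% lower, against 17.9% and 43.6% of all genes. The 10 Kupffer cell markers summed to 88.0 to 129.5 TPM in the middle and 99.1 to 143.5 in the dense zone. None passed limma's unblocked test (0 at an unadjusted p under 0.05), and 1 was higher with the block, 10% against 17.9% of all genes. The 9 sinusoidal endothelial markers tested summed to 50.3 to 103.4 and 43.3 to 59.0 TPM, and the 7 stellate cell markers tested to 52.2 to 70.5 and 38.01 to 47.5 TPM. None of either list passed (1 of each at an unadjusted p under 0.05). With the block 2 and 5 were lower, 22.2% and 71.4% of the lists against 43.6% of all genes. Only 3 cholangiocyte markers were tested, at 2.92 to 4.41 and 4.07 to 7.54 TPM in sum, and no lymphocyte marker reached the filter. Of 3 erythroid markers tested, 1 fell and 2 did not pass (2 lower with the block). These shares were 33.3% against 16.7% of all genes, and 66.7% against 43.6% with the block. Hba-a1, an alpha globin gene that shares sequence with Hba-a2, ranged from 122.6 to 445.2 TPM in the middle zone and from 57.7 to 99.5 in the dense zone and fell by 1.61 (adjusted p 0.0271); its coding length is 426 nt. Alas2, which makes the heme precursor of red cells and has a coding length of 1761 nt, overlapped between zones at medians of 5.68 and 8.70 TPM (change 0.33, adjusted p 0.585, and 0.0549 with the block). The part of these markers in the results was not tested.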

How the data were processed

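RNA was measured in 39 sucrose gradient libraries of liver from 2 wild type mice, 17 of gradient 1 and 22 of gradient 2, of which the 16 of fractions 10 to 13 and 16 to 19 were compared. The deposited values are TPM per gene symbol, which the authors obtained with kallisto from an index of RefSeq transcripts (mm10) and kept for genes over 1 TPM in at least 1 fraction; the kallisto version and how transcripts were summed are not given in the sources used here. The submitters' processing notes also name bcl2fastq 2.16.0.10. The number of value columns that matched no sample was 0. TPM keeps no counts, so depth and counting error are unknown, no count model was used, and precision rests on the spread between the 2 gradients.

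For each gene, zone means of log2(TPM + 1) over 4 fractions were computed per gradient, keeping genes whose mean over the 16 libraries reached 1 TPM, and fitted with limma (trend in eBayes, Benjamini-Hochberg adjustment, two-sided), first without and then with the gradient as a block. Both zones of a gradient hold 1 homogenate, which pairs them, and across genes the deviation of a gradient in its middle zone correlated with that in its dense zone (r = 0.807). Alternatives were another pseudocount, other filters, scalings and zone borders, the light zone in the fit, and leaving out each gradient and each library; TPM without Rn45s was added after the data were seen. Lengths, coordinates and hydropathy came from GENCODE M21 (GRCm38, the assembly of mm10), with 1 transcript per symbol, the longest coding sequence among principal isoforms.

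The gene lists, members and rules were chosen with earlier results of these data known. Genes named are, among those averaging 10 TPM or more that passed the unblocked test in the same direction in both gradients, the 10 largest rises and 10 largest falls of protein genes and up to 5 of other symbols each way; in each list, the 2 most abundant members and the largest called rise and fall relative to all genes; and Alb, Fn1, Psma1, Psmb1, Psmc5, Adrm1, Atp5b and Psmd2. Rn45s was added after its values were seen. Sequences are shown for the 3 genes of highest mean TPM in each of 2 classes in 1 bin of coding length, and Apoc4, B2m, Fabp1, Rida and Ddt are named for that reason. Calls without a whole gradient could not be fitted, since no residual spread would remain. Software was R 4.3.3, limma 3.58.1, Python 3.11.15, NumPy 2.4.6 and pandas 2.3.3. A few genes that the rule names are not reported here.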

Additional observations from a re-analysis of the deposited data

How the results depend on the processing

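The counts of genes higher and lower in the dense zone, 313 and 1864, were within 1.5 times these values with log2(TPM + 0.1), without a filter, with a mean TPM of at least 10, with log2 of the mean TPM, without Rn45s and with fractions 17 and 18 against 11 and 12. They moved to 1995 and 4875 with the gradient as a replicate block, to 784 and 1051 with quantile normalization and to 1005 and 930 after centring. The count of higher genes moved to 481 without the 50 most abundant genes, to 578 with the light zone in the fit and to 665 with fractions 15 to 18 against 9 to 12. Leaving out 1 library gave 115 to 399 higher and 1079 to 2060 lower genes, with the lowest of both without fraction 10 of gradient 1. The median change of all genes, -0.279, was -0.335 with a pseudocount of 0.1, -0.236 without a filter, -0.205 without the 50 most abundant genes and -0.346 with fractions 15 to 18 against 9 to 12. It reversed to 0.0535 with quantile normalization and to 0.0881 after centring, which by construction bring libraries to a common level. Without 1 gradient or 1 library it ran from -0.307 to -0.25. The count of genes without overlap, 4736 in both directions, stayed within 1.5 times this value in the alternatives run.

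Of 74 named genes that passed the unblocked test, 35 passed in every alternative that tested them, and no call changed direction. All 74 passed with the gradient as a block, which leaves the estimates as they were. The most calls were lost without fraction 10 of gradient 1 (22, adjusted p 0.0523 to 0.092), after centring (20) and without a filter or with quantile normalization (17 each). List medians relative to all genes changed sign in 17 cases over 10 of the 32 lists with tested genes; among them were translation factors (-0.0954) and hepatocyte markers (-0.103) with quantile normalization, and plasma proteins (-0.153) and cytochrome P450s (-0.208) with fractions 15 to 18 against 9 to 12. The cause was not tested. TPM values carry no depth, so what depth limits is unknown here.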
